A study of Mus musculus with 6 samples.

Results

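The 9 genes described here encode enzymes of the tricarboxylic acid cycle, with pyruvate carboxylase, which feeds it. They were picked by symbol from the 22332 gene symbols of the count table: Cs, Idh3a, Idh2, Ogdh, Dlst, Suclg1, Fh1, Mdh2 and Pcx. All 9 were found, and all 9 passed the filter on low counts. RNA came from CGR8, an embryonic stem cell line of the mouse, kept in medium with 10% serum and LIF, the cytokine that holds such cells in the pluripotent state. The 3 siRSL24D1 libraries come from cells given an siRNA pool against Rsl24d1, which takes part in making the large subunit of the ribosome, and the 3 siCtrl libraries from cells given a non-targeting pool, all taken 48 hours after transfection. Both groups are the same line and both were transfected, and untransfected cells were not analysed here. The series calls the triplicates independent but does not say whether they are separate cultures, so p-values cover the spread between these libraries only.

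The cycle runs in the mitochondrial matrix. Citrate synthase joins acetyl-CoA to oxaloacetate, and the following dehydrogenases release carbon dioxide and pass electrons to NADH, NADPH or the respiratory chain until oxaloacetate is remade. Its intermediates are also drawn off for building lipids, amino acids and nucleotides, and are then replaced, by pyruvate carboxylase or from glutamine. 2-Oxoglutarate, an intermediate, is a cosubstrate of the oxygen-sensing prolyl hydroxylases and of enzymes that demethylate DNA and histones, and succinate and fumarate inhibit them. In mouse embryonic stem cells the cycle is supplied by both glucose and glutamine.

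Library totals lay between 30943635 and 35214000 estimated counts. Rsl24d1 stood at 52.7 to 55.3 CPM in siRSL24D1 libraries and at 97.9 to 101.1 CPM in siCtrl libraries (CPM, here counts scaled to the library total), which agrees in direction with the labels. All 8 stem cell markers looked up (Pou5f1, Sox2, Nanog, Zfp42, Esrrb, Klf4, Tfcp2l1 and Utf1) had counts in every library, with summed levels of 1540 to 1580 CPM in siRSL24D1 and 1532 to 1609 CPM in siCtrl. Of the 8, 1 rose and 4 fell, 62.5% called. On the log2 scale (siRSL24D1 over siCtrl) Zfp42 was at 0.24, Nanog at -0.49, Tfcp2l1 at -0.27, Esrrb at -0.17 and Utf1 at -0.16. The 8 fibroblast markers summed to 122.8 to 149.5 CPM in siRSL24D1 and 125.0 to 158.6 CPM in siCtrl. Of 7 tested 1 rose and 2 fell, 42.9% called. The 8 endoderm markers summed to 60.97 to 72.0 CPM in siRSL24D1 and 64.09 to 74.88 CPM in siCtrl. Lama1, which was not called, made up most of these sums, with TMM-scaled means of 48.1 CPM in siRSL24D1 and 49.8 CPM in siCtrl. Of 6 tested 2 rose (Gata4 at 0.54 and Gata6 at 0.50 in log2) and 1 fell (Dab2 at -0.43), 50% called. The siCtrl means of Gata4 and Gata6 were low, at 1.82 and 1.78 CPM. Among all genes tested 41.2% were called, 21.2% higher and 20% lower. No marker was at 0 in every library, though Afp and Ttr had 0 counts in some. The part of such cells in the results was not tested, and in bulk RNA fewer cells of a type cannot be told apart from less RNA per cell. The libraries siCtrl 3 and siRSL24D1 2 stood apart from the others of their group. Their chi-square values against the other libraries of the group were 12.18 to 18.61 times counting noise, against 4.15 for siRSL24D1 1 and 3 and 2.68 for siCtrl 1 and 2.

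The 9 enzymes did not move together. In siRSL24D1 libraries Idh2, the NADP-linked isocitrate dehydrogenase, fell to 0.686 of its siCtrl level, and Pcx, pyruvate carboxylase, rose to 1.41 times its siCtrl level. Idh3a and Fh1 fell and Mdh2 rose by smaller amounts, and Cs, Ogdh, Dlst and Suclg1 did not pass the test. Thus 2 of 9 rose and 3 of 9 fell (edgeR quasi-likelihood F test, Benjamini-Hochberg adjusted p under 0.05 over 15084 genes). Among all genes tested 21.2% rose and 20% fell, 41.2% in all, so 5 called of 9 (55.6%) lies near the share of the whole table. The median log2 fold change (siRSL24D1 over siCtrl) was -0.05 over the 9 members and 0.02 over all genes tested, and the median absolute change was 0.19 over the 9 and 0.20 over all genes. The groups did not overlap for 6 of the 9 genes (2 higher and 4 lower), against 53% of all genes (26.8% higher and 26.2% lower). Summed over the 9, their counts made up 0.102 ± 0.000459% of each siRSL24D1 library and 0.105 ± 0.000529% of each siCtrl library (SD, n = 3 each; p = 0.1 in a two-sided exact permutation test, which cannot go lower with this number of libraries).

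**Figure D1:**
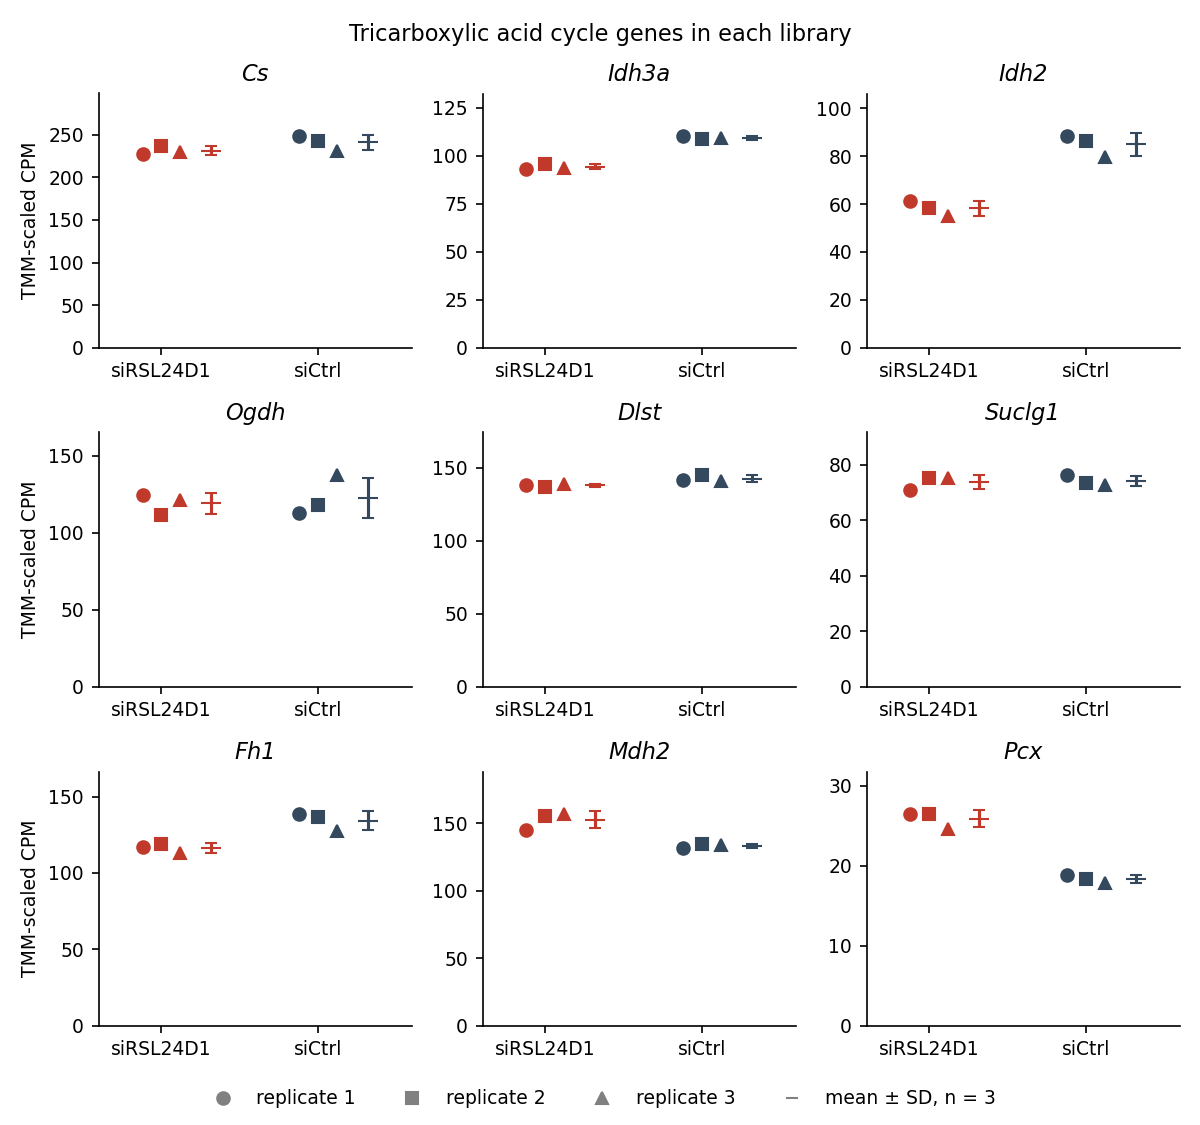
Levels of the 9 genes in each library, in TMM-scaled CPM on axes that start at 0, with siRSL24D1 in red on the left and siCtrl in dark blue on the right. Symbols mark the replicates, and bars give the mean ± SD of 3 libraries. The groups are apart for Idh3a, Idh2, Dlst, Fh1, Mdh2 and Pcx and overlap for Cs, Ogdh and Suclg1.

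Pcx makes oxaloacetate from pyruvate and so refills the cycle. It lies on chromosome 19 from 4510472 to 4621752 on the plus strand (GRCm38, GENCODE M21). Its level was 26.5, 26.4 and 24.6 CPM in siRSL24D1 1 to 3, against 18.8, 18.4 and 17.9 CPM in siCtrl 1 to 3 (TMM-scaled CPM, as in all values that follow unless said otherwise). Every siRSL24D1 library lay above every siCtrl library. On the log2 scale the fold change was 0.49 ± 0.06 (SE; edgeR adjusted p = 0.000346). With 598 to 927 counts in a library it was the member with the fewest counts; the other 8 had between 1831 and 8313.

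Cs, citrate synthase, takes that oxaloacetate up and is the enzyme of the first step (chromosome 10, 128337734 to 128362479, plus strand). It stood at 228, 237 and 229 CPM in siRSL24D1 and at 249, 243 and 231 CPM in siCtrl. The groups overlapped, since siRSL24D1 2 lay above siCtrl 3. Its log2 fold change of -0.06 had a 95% interval from -0.15 to 0.04 (edgeR adjusted p = 0.299). Without siCtrl 3 and siRSL24D1 2, the pair that stood apart, Cs was at -0.12 and passed (edgeR adjusted p = 0.0111).

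Isocitrate is oxidised by separate enzymes in the matrix. Idh3a encodes the catalytic subunit of the NAD-linked enzyme, which serves energy metabolism, and Idh2 the NADP-linked enzyme, which makes mitochondrial NADPH and can also run in reverse. Idh2 (chromosome 7, 80094846 to 80115392, minus strand) was at 61.4, 58.3 and 55.1 CPM in siRSL24D1 and at 88.5, 86.6 and 79.7 CPM in siCtrl. All siRSL24D1 values lay below all siCtrl values. Its log2 fold change was -0.54 ± 0.06 (SE; edgeR adjusted p = 0.000274), the largest fall of the 9. Idh3a (chromosome 9, 54586334 to 54604661, plus strand) was at 93.2, 95.7 and 93.6 CPM in siRSL24D1 and at 110.3, 108.4 and 109.0 CPM in siCtrl. The groups were again apart and each was tight. This gave a log2 fold change of -0.21 ± 0.04 (SE; edgeR adjusted p = 0.00242).

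Ogdh and Dlst encode the decarboxylase and the succinyltransferase of the 2-oxoglutarate dehydrogenase complex, which makes succinyl-CoA. Ogdh (chromosome 11, 6291633 to 6356642, plus strand) was at 124.8, 111.7 and 121.0 CPM in siRSL24D1 and at 112.9, 117.7 and 137.5 CPM in siCtrl. The groups overlapped over most of their range, and siCtrl 3 was the highest library. The change was -0.04 in log2, with a 95% interval from -0.22 to 0.14 (edgeR adjusted p = 0.691), and its sign turned without siCtrl 3, to 0.035. Dlst (chromosome 12, 85110833 to 85134845, plus strand) was at 138.1, 137.0 and 138.7 CPM in siRSL24D1 and at 141.7, 145.2 and 141.2 CPM in siCtrl. Its groups did not overlap, yet the log2 fold change was -0.05, with a 95% interval from -0.13 to 0.03, and did not pass (edgeR adjusted p = 0.303).

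Suclg1, the alpha subunit shared by both forms of succinyl-CoA ligase, had the smallest change (chromosome 6, 73248382 to 73276911, plus strand). It was at 70.8, 75.2 and 75.0 CPM in siRSL24D1 and at 76.3, 73.3 and 72.8 CPM in siCtrl. The ranges overlapped, with the lowest value in siRSL24D1 1 and the highest in siCtrl 1. In log2 the change was -0.01, with a 95% interval from -0.11 to 0.09 (edgeR adjusted p = 0.882), and its sign turned with library totals as scaling.

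Fh1, fumarase, hydrates fumarate to malate, and Mdh2 oxidises malate back to oxaloacetate. These neighbouring steps went in opposite directions. Fh1 (chromosome 1, 175600374 to 175625635, minus strand) was at 116.9, 119.2 and 113.0 CPM in siRSL24D1 and at 138.7, 136.7 and 127.5 CPM in siCtrl. The groups were apart, with siCtrl 3 the lowest of its group. The fitted log2 fold change was -0.21 ± 0.05 (SE; edgeR adjusted p = 0.00815). Mdh2 (chromosome 5, 135778480 to 135790398, plus strand) was at 145.2, 155.1 and 156.9 CPM in siRSL24D1 and at 131.7, 134.4 and 134.0 CPM in siCtrl. Here each siRSL24D1 library was above each siCtrl library. Its log2 fold change came to 0.19 ± 0.04 (SE; edgeR adjusted p = 0.00771).

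All 5 calls (Pcx, Mdh2, Idh2, Idh3a and Fh1) held, in the same direction, under each of 21 alternative settings of scaling, filter, test, correction and left-out libraries. Across them Pcx ranged from 0.44 to 0.53, Mdh2 from 0.16 to 0.23, Idh2 from -0.61 to -0.51, Idh3a from -0.25 to -0.19 and Fh1 from -0.28 to -0.18 in log2 fold change. No exon of another annotated gene overlaps an exon of a member. Reads shared with pseudogene copies elsewhere were not assessed.

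The promoters of the members that moved are printed because genes of both directions can be set side by side in them. RefSeq promoter windows (GRCm38.p6, 250 bases before to 50 after a transcript start) were found for 8 of the 9 genes, without Idh3a. Shown are those of Idh2 (chr7:80115301-80115600, minus strand) and Fh1 (chr1:175625586-175625885, minus strand), which fell, and of Mdh2 (chr5:135778399-135778698, plus strand) and Pcx (chr19:4510222-4510521, plus strand, the upstream of its 2 windows), which rose. Each is written 5′ to 3′ on the gene's strand, with capitals for ACGTG or GCGTG on either strand, the core that hypoxia-inducible factors bind.
Idh2: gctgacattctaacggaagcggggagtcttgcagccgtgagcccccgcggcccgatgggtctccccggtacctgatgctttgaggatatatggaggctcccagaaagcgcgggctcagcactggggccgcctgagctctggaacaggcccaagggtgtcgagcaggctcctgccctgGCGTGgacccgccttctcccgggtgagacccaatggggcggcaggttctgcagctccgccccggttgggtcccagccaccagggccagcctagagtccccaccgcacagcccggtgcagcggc
Fh1: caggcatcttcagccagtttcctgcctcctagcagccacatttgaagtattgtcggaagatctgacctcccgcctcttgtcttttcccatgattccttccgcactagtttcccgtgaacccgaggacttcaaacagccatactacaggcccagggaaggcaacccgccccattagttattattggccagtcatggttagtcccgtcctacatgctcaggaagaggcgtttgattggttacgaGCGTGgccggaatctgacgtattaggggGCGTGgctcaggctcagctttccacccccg
Mdh2: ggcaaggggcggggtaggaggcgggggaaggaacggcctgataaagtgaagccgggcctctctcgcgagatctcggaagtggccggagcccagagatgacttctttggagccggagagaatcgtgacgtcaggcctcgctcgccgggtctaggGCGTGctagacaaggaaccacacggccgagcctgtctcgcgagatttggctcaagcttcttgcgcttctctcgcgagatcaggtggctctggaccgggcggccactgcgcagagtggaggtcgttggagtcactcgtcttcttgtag
Pcx: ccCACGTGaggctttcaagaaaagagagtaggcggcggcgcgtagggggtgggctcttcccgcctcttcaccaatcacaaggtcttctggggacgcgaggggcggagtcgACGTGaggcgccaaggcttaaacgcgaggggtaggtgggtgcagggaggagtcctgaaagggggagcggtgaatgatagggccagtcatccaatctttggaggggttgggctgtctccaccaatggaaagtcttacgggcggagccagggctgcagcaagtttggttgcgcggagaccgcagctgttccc
The core stood at -73 from the start site in Idh2, at -8 and 20 in Fh1, at -97 in Mdh2 and at -248, -247 and -140 in Pcx, where the first 2 are both strands of 1 CACGTG. Windows of both directions thus held it, as did those of Ogdh and Suclg1, which did not pass the test. In all, 6 of 8 members (75%) had it in at least 1 window, as did 46.7% of 27025 genes with a window. ACGTG was in windows of 21.8% and GCGTG of 35.2% of these genes, and in 19.6% and 32.4% of all 32851 windows. Of other motifs searched on both strands, GGGCGG, the GC box, was in windows of 7 of 8 members and of 38.2% of all genes with a window. AGGTCA, a motif of nuclear receptors, was in those of Fh1, Ogdh and Pcx and in those of 18.1% of all genes. CACGTG, the E-box, which contains ACGTG, was in those of Ogdh and Pcx and in those of 8.09% of all genes. CATGCGC, an NRF1 core, was in that of Ogdh and in those of 4.41% of all genes, and CCGGAAG, an ETS site, in that of Dlst and in those of 9.93% of all genes. Ogdh has 6 windows and Pcx 2, and the other 6 members have 1 each. GGGCGG and both forms of the core contain CG. The printed windows held 14 (Fh1) to 27 (Mdh2) CG pairs, and all member windows 5 (the second of Pcx) to 37 (the fourth of Ogdh). The median over all windows was 7. The part of base composition in these shares was not tested. The motif matches describe the letters only.

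Among 9 other subunits of cycle enzymes, those past the test were lower in siRSL24D1. All 9 were tested, and 0 rose and 3 fell (Suclg2, Sdhc and Sdhd), with a median log2 fold change of -0.14. The 33.3% called were falls only. Among all genes tested 20% fell and 21.2% rose, and the 41.2% called in either direction lay above this share. Suclg2, the GDP-linked beta subunit of succinyl-CoA ligase, was at 87.9, 87.0 and 85.0 CPM in siRSL24D1 and at 116.0, 115.9 and 112.1 CPM in siCtrl. The groups were far apart against their spread, and the log2 fold change was -0.40 (edgeR adjusted p = 0.000159). Sdhc and Sdhd, the membrane anchors of succinate dehydrogenase, were at -0.19 (edgeR adjusted p = 0.00823) and -0.14 (edgeR adjusted p = 0.028). The call of Sdhd was lost without siCtrl 1, siCtrl 2, siRSL24D1 1 or siRSL24D1 3 (edgeR adjusted p = 0.0839 to 0.12) and after a correction for transcript length (edgeR adjusted p = 0.0994).

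Sdha and Sdhb, its flavin and iron-sulfur subunits, were at -0.08 (edgeR adjusted p = 0.0983) and -0.15 (edgeR adjusted p = 0.064). Idh3b and Idh3g, the other subunits of the NAD-linked isocitrate dehydrogenase, were at -0.04 (edgeR adjusted p = 0.498) and -0.15 (edgeR adjusted p = 0.136). Sucla2, the ADP-linked beta subunit, was at -0.06 (edgeR adjusted p = 0.259), and Dld, the dihydrolipoyl dehydrogenase shared with the pyruvate complex, at 0.02 (edgeR adjusted p = 0.722), with a sign that turned under upper-quartile scaling. The count that fell moved with the libraries and the fit. It was 2 of 9 without siCtrl 1, siCtrl 2, siRSL24D1 1 or siRSL24D1 3, 3 of 9 without siRSL24D1 2, 6 of 9 without siCtrl 3, and 7 of 9, at a median of -0.21, without siCtrl 3 and siRSL24D1 2, when Idh3b, Idh3g, Sdha and Sdhb passed as well.

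**Figure D2:**
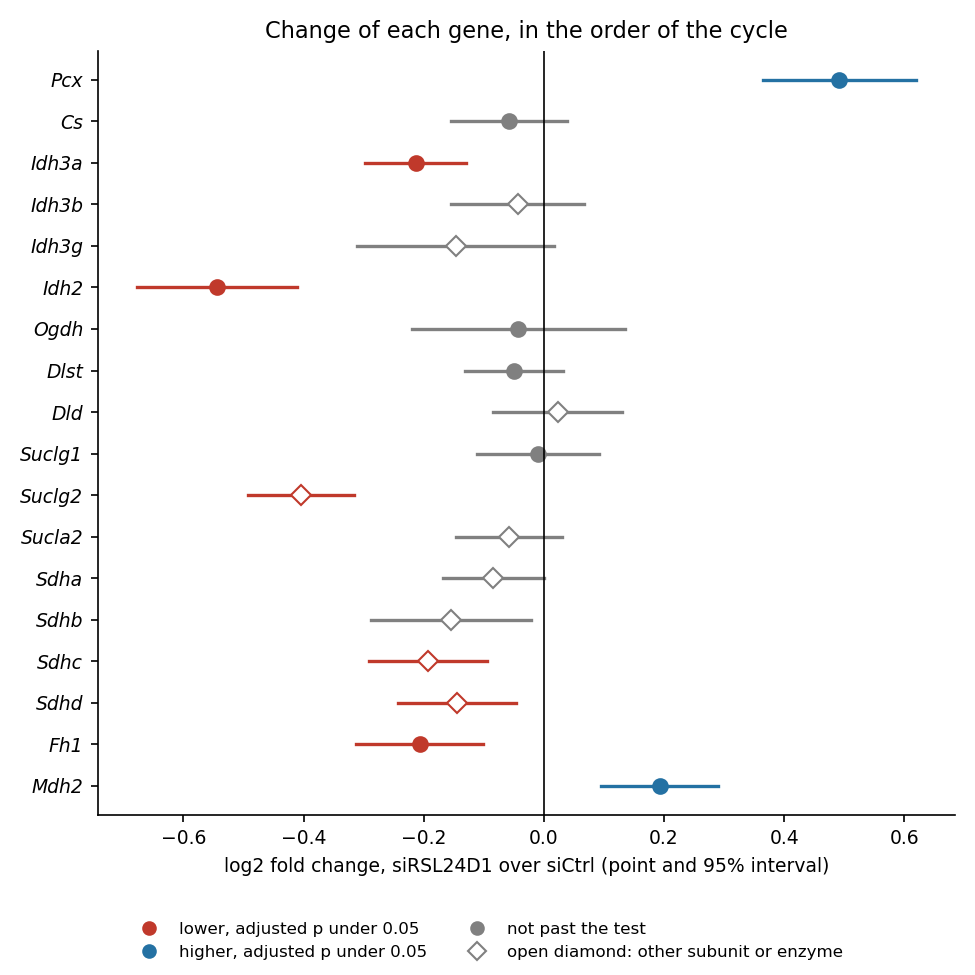
Log2 fold change, siRSL24D1 over siCtrl, of the 9 members (filled circles) and 9 other genes of the cycle (open diamonds), in the order of the steps from Pcx at the top to Mdh2 at the bottom. Lines are 95% intervals, red and blue mark genes past the test, lower and higher, and grey the rest. Pcx at the top and Mdh2 at the bottom lie to the right of 0, while Idh2 at -0.54 and Suclg2 at -0.40 lie farthest to the left.

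Enzymes that share a substrate or a complex were set against each other within each library, which does not depend on scaling. Levels here are per kb of the principal transcript. Suclg2 stood at 0.785, 0.786 and 0.779 of Sucla2 in siRSL24D1 and at 1.00, 0.992 and 0.993 in siCtrl. The balance of the GDP-linked and ADP-linked subunits thus differed by -0.35 on the log2 scale, with an SD of 0.007 in each group. Idh2 stood at 0.907, 0.839 and 0.810 of Idh3a in siRSL24D1 and at 1.11, 1.10 and 1.01 in siCtrl. Idh2 also stood lower against Idh1, its cytosolic form, at 0.738 to 0.741 in siRSL24D1 and 0.852 to 0.924 in siCtrl.

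Mdh2 stood at 0.961, 0.981 and 1.02 of Mdh1, the cytosolic malate dehydrogenase, in siRSL24D1 and at 0.766, 0.771 and 0.827 in siCtrl, a log2 difference of 0.33. Pcx stood at 0.0837, 0.0804 and 0.0773 of Cs in siRSL24D1 and at 0.0546, 0.0546 and 0.0557 in siCtrl, a log2 difference of 0.55. Within the NAD-linked isocitrate dehydrogenase, Idh3a was lower against Idh3b by -0.17 on the log2 scale, while Idh3a against Idh3g (-0.07) and Ogdh against Dlst (0.01) overlapped between the groups. For the 6 of 8 ratios whose groups did not overlap the two-sided exact permutation p was 0.1, the smallest possible here, and 0.133 adjusted over the 8. For the other 2 the two-sided exact permutation p was 0.5 and 0.9. This exact test cannot pass the threshold with 3 libraries in each group.

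**Figure D3:**
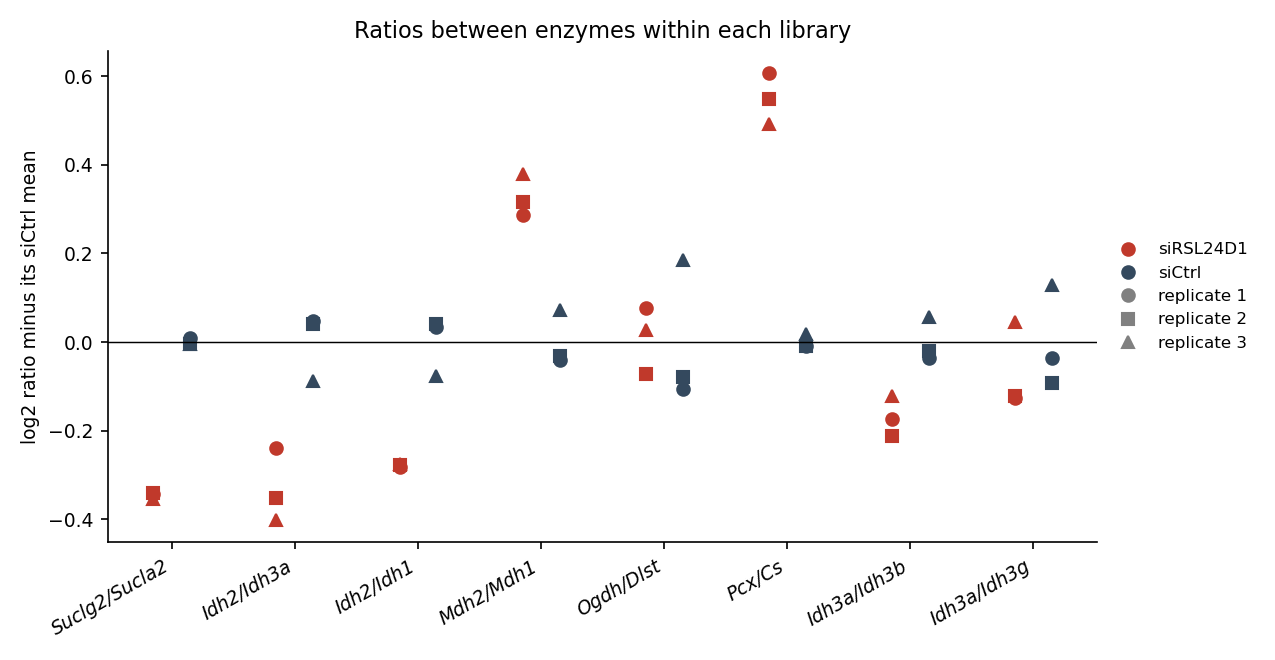
Log2 ratio of 8 enzyme pairs in each library, less the mean of that ratio over the 3 siCtrl libraries, with siRSL24D1 in red to the left and siCtrl in dark blue to the right, and symbols for the replicates. The groups are apart for 6 pairs, 4 lower and 2 higher (Mdh2/Mdh1 and Pcx/Cs), and overlap for Ogdh/Dlst and Idh3a/Idh3g.

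Between genes, levels can be compared only per length, and the order rested on which length was used. Per kb of the principal transcript, the siRSL24D1 libraries ranked Mdh2 (104.7 ± 4.31 CPM per kb), Cs (79.1 ± 1.66), Dlst, Suclg1, Fh1, Idh3a, Idh2 (33.4 ± 1.82), Ogdh and Pcx (6.36 ± 0.26). The siCtrl libraries ranked Mdh2 (91.6 ± 1.01 CPM per kb), Cs (82.4 ± 2.99), Dlst, Fh1, Suclg1, Idh2 (48.7 ± 2.67), Idh3a, Ogdh and Pcx (4.52 ± 0.12; SD, n = 3 each). Of 8 neighbouring pairs, 1 had overlapping ranges of mean ± 1 SD in siRSL24D1 (Dlst and Suclg1) and 3 in siCtrl (Dlst and Fh1, Fh1 and Suclg1, Suclg1 and Idh2). Per kb of merged exons, every place of the siCtrl order changed but that of Pcx, which stayed last. Dlst moved from the third to the eighth place and Mdh2 from the first to the third. In that siCtrl order 3 of 8 neighbouring pairs had overlapping ranges of mean ± 1 SD (Cs and Fh1, Fh1 and Mdh2, Ogdh and Idh3a).

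**Figure D4:**
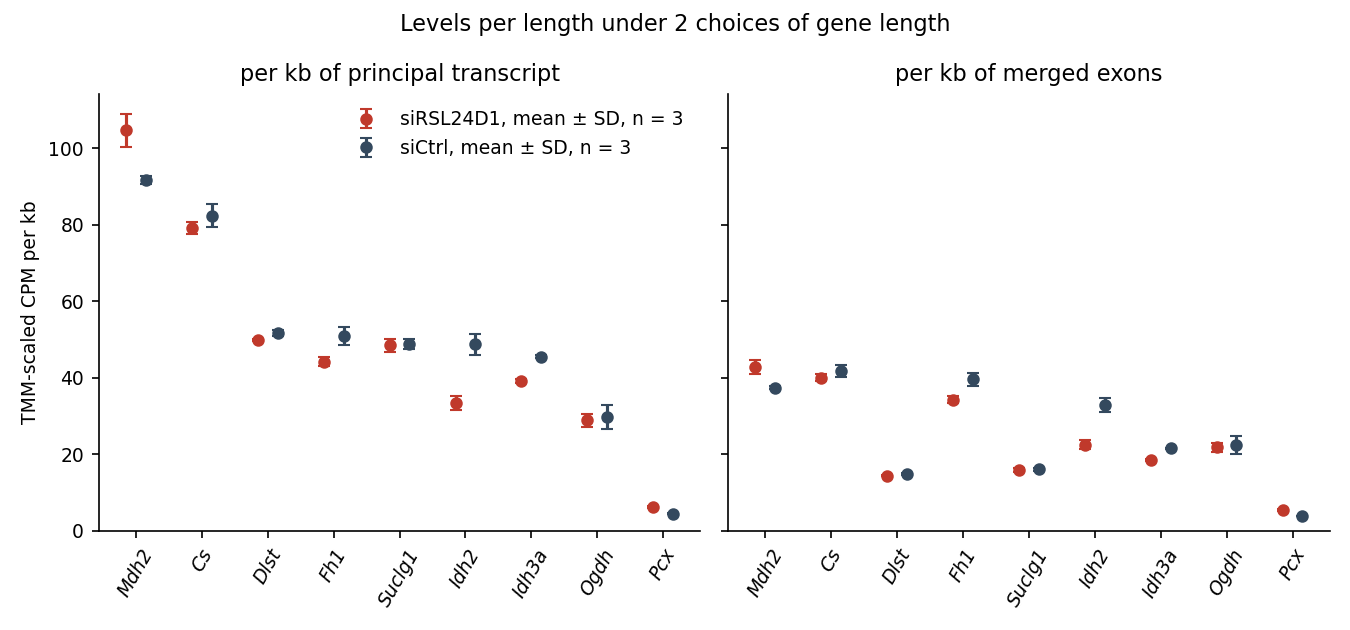
Levels of the 9 genes in TMM-scaled CPM per kb, mean ± SD of 3 libraries, with siRSL24D1 in red to the left and siCtrl in dark blue to the right, per kb of the principal transcript (left panel) and of merged exons (right panel). Pcx is lowest in both panels, at 6.36 and 4.52 CPM per kb in the left one. In siCtrl every other gene changes place between the panels, with Mdh2 first in the left one and Cs in the right one. In siRSL24D1 Mdh2 is first and Cs second in both.

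Of the cytosolic and related forms, Acly and Idh1 had the largest changes, both lower in siRSL24D1. Of 6 tested (7 were listed), 0 rose and 4 fell, with a median log2 fold change of -0.15. That is 66.7% called, beside 41.2% of all genes tested (21.2% higher and 20% lower). Acly, which splits exported citrate into acetyl-CoA and oxaloacetate, was at 610, 617 and 581 CPM in siRSL24D1 and at 796, 803 and 734 CPM in siCtrl. The groups were apart, and the log2 fold change was -0.37 (edgeR adjusted p = 0.000728). Idh1 was at -0.26 (edgeR adjusted p = 0.00344). Ogdhl, a paralog of Ogdh, was at -0.16 (edgeR adjusted p = 0.0168) and lost its call without siCtrl 2 or siRSL24D1 3 (edgeR adjusted p = 0.0701 and 0.0704). Mdh1 was at -0.14 (edgeR adjusted p = 0.0352), a call that ended when siCtrl 1, siCtrl 2, siRSL24D1 1 or siRSL24D1 3 was left out (edgeR adjusted p = 0.103 to 0.145). It also ended after the length correction with replicate number as a block (edgeR adjusted p = 0.0563). With siCtrl 2 or siRSL24D1 3 left out, the fallen genes therefore numbered 2.

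Genes of the step that brings pyruvate in moved in both directions. Of 13 tested, 3 rose (Mpc1, Mpc2 and Pdhx) and 7 fell, with a median of -0.13. In this list 76.9% were called, beside 41.2% of all genes. Pdk1, a kinase that switches the pyruvate dehydrogenase complex off and a known target of hypoxia-inducible factor, was at 153.1, 128.3 and 129.7 CPM in siRSL24D1 and at 233, 240 and 228 CPM in siCtrl. The groups were far apart, and the log2 fold change was -0.77 (edgeR adjusted p = 0.000126). Of the other kinases, Pdk4 was at -0.60 (edgeR adjusted p = 0.00655) and Pdk2 at -0.56 (edgeR adjusted p = 0.0265), both under 10 CPM. Pdk2 lost its call without siCtrl 2, siCtrl 3 or siRSL24D1 2 (edgeR adjusted p = 0.0622 to 0.0783). Pdk3 fell less, at -0.13 (edgeR adjusted p = 0.0381). The phosphatases of the complex fell too, Pdp1 by -0.38 (edgeR adjusted p = 0.000987) and Pdp2 by -0.31 (edgeR adjusted p = 0.000709). So did its subunit gene Pdha1, at -0.20 (edgeR adjusted p = 0.00374). Mpc1, which forms the mitochondrial pyruvate carrier with Mpc2, rose by 0.43 (edgeR adjusted p = 0.00871). Pdk3, Pdp1, Pdp2, Pdha1, Mpc2 and Pdhx were named after their values were seen. Those 6 genes were not followed singly across the alternative settings. With library totals, no low-count filter, DESeq2, the replicate block or the length correction, 6 genes of the list fell instead of 7. Pdk1, Pdk2 and Pdk4 kept their calls in these settings, so the lost call was of a gene not followed, such as Pdk3. With 1 library left out 5 to 7 genes fell, and only 1 gene rose without siCtrl 1, siRSL24D1 2 or siRSL24D1 3.

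Of 15 tested genes that supply or drain the cycle (16 were listed), 0 rose and 7 fell, at a median of -0.16. The share called, 46.7%, was made up of falls only, beside 20% of all genes tested that fell and 41.2% called in either direction. Gpt2, the mitochondrial alanine transaminase, was at 31.6, 29.6 and 28.6 CPM in siRSL24D1 and at 42.9, 46.5 and 41.1 CPM in siCtrl, groups well apart, with a log2 fold change of -0.54 (edgeR adjusted p = 0.000395). Gls2, a glutaminase, was at -0.47 (edgeR adjusted p = 0.00225), Gpt, the cytosolic transaminase, at -0.48 (edgeR adjusted p = 0.0218) and Mmut, listed as Mut, which delivers succinyl-CoA from propionate, at -0.19 (edgeR adjusted p = 0.0052). Gpt lost its call without siCtrl 2, siRSL24D1 2 or siRSL24D1 3 (edgeR adjusted p = 0.0515 to 0.0842). With siCtrl 1, siCtrl 2 or siRSL24D1 3 left out, 4 fell.

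Carriers of the inner membrane changed in both directions. Of 7 tested (8 were listed), 3 rose and 2 fell, at a median of -0.07. This is 71.4% called, beside 21.2% of all genes higher and 20% lower. Slc25a1, which exports citrate, was at 52.3, 53.3 and 49.1 CPM in siRSL24D1 and at 73.0, 76.2 and 70.0 CPM in siCtrl. Its groups were apart, with a log2 fold change of -0.50 (edgeR adjusted p = 0.000221). Slc25a10, the dicarboxylate carrier, was at 12.4, 14.1 and 13.0 CPM in siRSL24D1 and at 8.98, 8.02 and 8.91 CPM in siCtrl, a rise of 0.61 (edgeR adjusted p = 0.000776). Slc25a12, an aspartate-glutamate carrier, rose by 0.30 (edgeR adjusted p = 0.00561), a call lost after the length correction (edgeR adjusted p = 0.0838). Slc25a13, the other carrier of this kind, fell by -0.26 (edgeR adjusted p = 0.00265) and was named after its values were seen. The siCtrl means were 22.8 CPM for Slc25a12 and 111.2 CPM for Slc25a13. Slc25a21 had 16, 18 and 17 counts in siRSL24D1 and 8, 9 and 8 in siCtrl, and its rise of 1.02 (edgeR adjusted p = 0.0131) did not pass under DESeq2 (adjusted p = 0.135).

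Of 8 assembly and cofactor genes, 1 rose and 1 fell, at a median of -0.01. The 25% called lay below the 41.2% of all genes. Hlcs, the ligase that attaches biotin to carboxylases such as the product of Pcx, was at 8.92, 8.92 and 10.2 CPM in siRSL24D1 and at 11.6, 12.2 and 13.1 CPM in siCtrl. The groups were apart, and the log2 fold change was -0.40 (edgeR adjusted p = 0.00602), opposite in sign to that of Pcx. Sdhaf2, which helps attach flavin to Sdha, rose by 0.20 (edgeR adjusted p = 0.018). Its call was lost without siCtrl 2 or siRSL24D1 2 (edgeR adjusted p = 0.0822 and 0.0555). The same held under DESeq2 (adjusted p = 0.0517) and after a correction for GC content (edgeR adjusted p = 0.056).

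**Figure D5:**
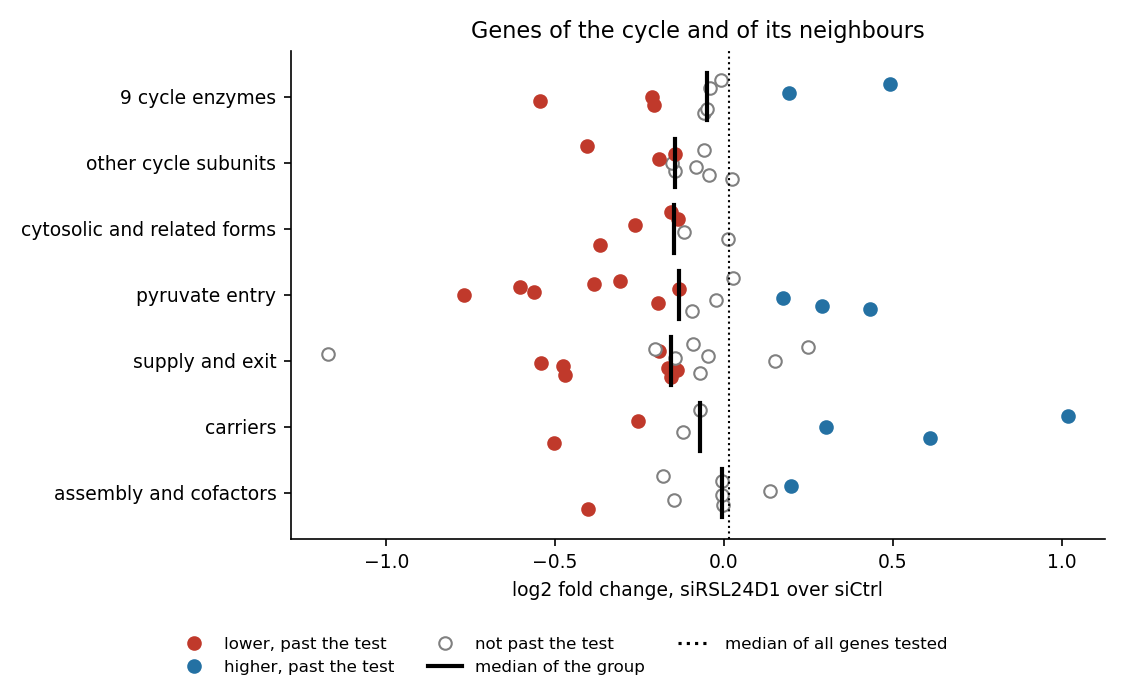
Log2 fold change, siRSL24D1 over siCtrl, of each tested gene of the 9 cycle enzymes and of 6 neighbouring groups, with red and blue for genes past the test, lower and higher, and open circles for the rest. Thick bars are group medians, and the dotted line is the median of all genes tested, 0.02. The group medians lie between -0.16 and -0.01, and the lowest called gene is Pdk1 at -0.77.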

How the data were processed

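The deposited table holds the authors' estimated counts per gene symbol in 6 libraries, not scaled between them. STAR 2.7.0f, Salmon 0.14.1 and GRCm38 are named in the submitters' processing notes. Which did what, the annotation and the strand setting were not given in the sources used here. Per the labels' protocols, ribosomal RNA was depleted and the kit was stranded. The tests had been planned for counts, so the estimated counts were rounded first. Genes were kept by filterByExpr (minimum count 10, minimum total 15), which left 15084, scaled by TMM and tested by edgeR 4.0.16 (glmQLFit, glmQLFTest, two-sided) in R 4.3.3, siRSL24D1 against siCtrl, with Benjamini-Hochberg adjustment over all genes and a threshold of 0.05. Standard errors are the log2 fold change over the root of F, and the 95% intervals use the moderated degrees of freedom. The test was checked on simulated counts with the same spread for every gene and few changed genes. That check does not cover libraries that stand apart or a large share of changed genes, as found here.

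The members, the lists of neighbouring genes and the motifs were chosen with earlier results of these data known. Named are all members, the other cycle genes, the genes of the ratios and, in each other list, up to 4 called genes with the largest change. A few more are marked as named after their values were seen. The principal transcript is that of GENCODE M21, which holds 22304 of the 22332 symbols. Alternatives were DESeq2 1.42.0 and its size factors, library totals, upper-quartile scaling, other filters, limma-voom (limma 3.58.1), a replicate block, loess corrections for length and GC (span 0.3), a threshold of 0.01, unrounded values and left-out libraries. A gene of the cycle is not reported here. Leaving out siCtrl 3 and siRSL24D1 2 together was chosen after seeing the data.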

Additional observations from a re-analysis of the deposited data

How the results depend on the processing

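In 20 of 21 alternatives 2 members rose and 3 fell, and without siCtrl 3 and siRSL24D1 2 a further one, Cs, fell. Of the members not called, Cs ran from -0.099 to -0.035 with 1 library left out. Suclg1 turned to 0.014 with library totals, 0.024 after the length correction and 0.024 after that correction with the replicate block, ran from -0.036 to 0.019 with 1 library left out, and was -0.056 without siCtrl 3 and siRSL24D1 2. Ogdh ran from -0.098 to 0.035 with 1 library left out and was 0.074 without siCtrl 3 and siRSL24D1 2, when Cs passed at -0.12. Dld turned to -0.0051 with upper-quartile scaling, -0.025 with the GC correction, -0.024 with that and the replicate block, -0.054 without those 2 libraries, and ran from -0.023 to 0.048 with 1 left out. The Ogdh/Dlst ratio ran from -0.042 to 0.10.

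Same-numbered libraries had deviations correlated at -0.218, 0.144 and 0.168, and differently numbered ones from -0.403 to 0.336. With 3 libraries a group these values cannot show whether the numbers mark pairs. With the block 2 members rose and 3 fell, as without it. Under the replicate block 5 other cycle genes fell instead of 3, and 5 with the GC correction and the block; with 1 library left out it was 2 to 6, and 7 without siCtrl 3 and siRSL24D1 2. The cause was not tested.

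Medians shifted with scaling. With library totals they were -0.026 for the 9 members, -0.12 for related forms and -0.13 for supply and exit, where 1 gene rose. With upper-quartile scaling they were -0.077, -0.18 and -0.18, and -0.16 for pyruvate entry, where 1 gene rose. Without those 2 libraries they were -0.071 for the members, -0.21 for other cycle genes, -0.19 for related forms, -0.17 for pyruvate entry, -0.18 for supply and exit, 0.0090 for carriers and -0.092 for assembly genes, of which 0 rose. The median was 0.11 for carriers with no filter, -0.19 for related forms after the length correction with or without the block, and -0.16 for pyruvate entry after the GC correction with or without it. The median of other cycle genes was -0.093 after the length correction, with or without the block. After the length correction 2 supply genes rose, or 1 with the block. One pyruvate gene rose and 0 assembly genes rose with DESeq2. After the GC correction 0 assembly genes rose, with or without the block, and 2 fell with it. At 0.01, 2 related forms and 3 supply genes fell, 1 pyruvate gene and 0 assembly genes rose.

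With 1 library left out, medians ran from -0.069 to -0.045 (members), -0.19 to -0.088 (other cycle), -0.18 to -0.13 (related forms), -0.16 to -0.13 (pyruvate entry), -0.18 to -0.15 (supply and exit), -0.14 to -0.0044 (carriers) and -0.057 to 0.024 (assembly). Related forms that fell ran from 2 to 4, pyruvate genes that rose from 1 to 3, supply genes that fell from 4 to 7 and rose from 0 to 1, and assembly genes that rose from 0 to 1. Per kb of merged exons the siCtrl order placed Cs at 1, Fh1 at 2, Mdh2 at 3, Idh2 at 4, Ogdh at 5, Idh3a at 6, Suclg1 at 7 and Dlst at 8. Ranges of mean ± 1 SD overlapped there between Cs and Fh1, Fh1 and Mdh2, and Ogdh and Idh3a. With 3 libraries a group, the exact permutation test could not fall under 0.1.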
